A study of Mus musculus with 160 samples.

Results

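Macrophages were followed through 34 genes, chosen by name as genes that mark this cell type or serve its functions, out of the 46078 genes in the count table. All 34 symbols matched 1 Ensembl identifier each. RNA was sequenced from 8 populations sorted from the aorta-gonad-mesonephros (AGM) region of mouse embryos of the genotype *Gata3*-GFP +/-, in which a GFP reporter inserted at 1 *Gata3* allele marks cells that express this transcription factor. All 8 populations share this genotype, the GFP- ones included, so GFP+ and GFP- cells differ in reporter fluorescence and no population is a *Gata3* mutant comparison. At E10.5 the populations were GFP+ and GFP- haematopoietic cells (HC, sorted by CD41 and CD45) and GFP+ and GFP- endothelial cells (EC, Cdh5+ without CD41 and CD45). At E11.5 they were GFP+ and GFP- mesenchymal cells (MC, sorted by Pdgfrb) and GFP+ and GFP- sympathetic nervous system cells (SNS, sorted by Ngfr). Each population was sequenced as 20 pools of 20 cells. The pools of a population were filled from the pooled cells of several embryos, and nothing ties a pool to an embryo or litter, so the p-values measure the spread between pools, which may be technical in part. The series design writes the HC gate as CD41+ and CD45+, whereas the methods text writes CD41/45+, so whether a cell needed both markers is not settled.

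Macrophages are phagocytes that appear in the embryo before definitive haematopoietic stem cells, and they are among the haematopoietic cells of the AGM. Their survival depends on the receptor encoded by *Csf1r*, and their identity on transcription factors, of which PU.1 (encoded by *Spi1*) is the central one. Mature embryonic macrophages take up dying cells with scavenger and bridging receptors, digest them in lysosomes, and secrete complement C1q. The NADPH oxidase and lysozymes serve the killing of microbes and are shared with granulocytes and their precursors.

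Of the 160 pools, 153 passed the limits on depth and quality, with 1400824 to 16004756 counts on genes per pool. All 40 HC pools were among them. Counting error and its limits cover the counts only, since the amplified reads carry no molecular identifiers. The sort was visible in the reporter gene: *Gata3* had 12.7, 45.05 and 149 CPM (read counts scaled to library size with TMM normalization; lowest, median and highest pool) in GFP+ HC and 1.78, 7.02 and 12.9 CPM in GFP- HC. The ranges met at their ends and otherwise lay apart. *Ptprc*, which encodes CD45, had a median of 208 CPM in GFP+ HC and 429 CPM in GFP- HC, and *Itga2b*, which encodes CD41, had medians of 232 CPM and 8.65 CPM. One GFP- HC pool stood apart by its share of reads that fell on more than 1 gene (4.62% against a median of 16.3% over all passing pools), and without it 14 members were lower in GFP+ HC, the 13 described next and *P2ry12*, and 0 higher.

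In HC, the macrophage genes were lower in GFP+ than in GFP- pools or did not pass the test, and none passed as higher. Of the 33 members with enough counts to be tested, 13 fell (Benjamini-Hochberg adjusted p under 0.01 over all genes in the quasi-likelihood framework of edgeR, with a log2 change past 0.1 in size), where 9.63% of all 16200 genes tested fell and 17% rose. These were *Csf1r*, *Spi1*, *Irf8*, *Maf*, *Lyz1*, *Lyz2*, *Fcer1g*, *Tyrobp*, *Laptm5*, *Ctss*, *F13a1*, *Ncf1* and *Cybb*. The number higher was 0 by edgeR, where 1 member had an unadjusted p under 0.05, and it was 1 by DESeq2 and 0 by the scanpy t-test. The number lower was 13 by edgeR, 14 by DESeq2 and 17 by the scanpy t-test. The median log2 fold change over the 33 members was −0.71, beside 0.05 over all genes tested, and 29 of the 33 values were negative. In pools of 20 mixed cells, fewer macrophages and less RNA of these genes per macrophage cannot be told apart.

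**Figure D1:**
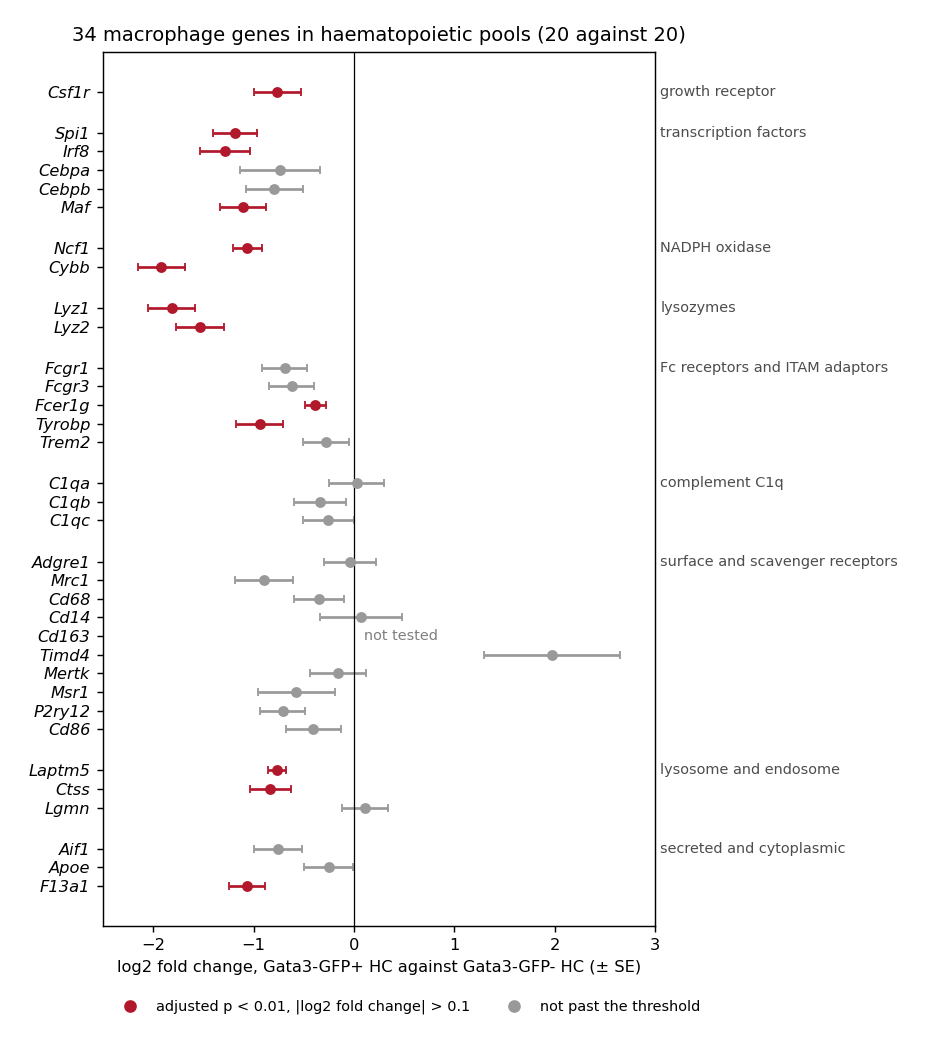
Log2 fold change of the macrophage genes between GFP+ and GFP- HC pools (x axis, point with standard error, 20 pools against 20), grouped by role on the y axis. Red points passed the threshold and grey points did not, and all 13 red points lie on the lower side while *Timd4* at 1.97 is the highest grey point.

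*Spi1* encodes PU.1, which directs the macrophage and myeloid programme. It had 6.65, 204 and 417 CPM (lowest, median and highest of 20 pools) in GFP+ HC and 322, 447 and 577 CPM in GFP- HC, and 19 of the 20 GFP+ pools lay below every GFP- pool. Its log2 fold change was −1.19 (standard error, SE, 0.22, edgeR adjusted p = 2.609e-05). *Irf8* encodes a partner of PU.1 that steers progenitors towards monocytes and macrophages. It had 2.66, 68.2 and 216 CPM in GFP+ HC and 87.6, 166 and 275 CPM in GFP- HC, so that 17 of the 20 GFP+ pools lay below all GFP- pools. *Irf8* fell by 1.28 on the log2 scale (SE 0.25, edgeR adjusted p = 5.666e-05). *Maf*, the gene of a factor that restrains macrophage proliferation, had a median of 201 CPM in GFP+ and 457 CPM in GFP- HC and a log2 fold change of −1.11 (SE 0.23). *Maf* shares 5.3% of its exon bases with *Gm15655* on the opposite strand. The C/EBP genes, whose products act with PU.1 in myeloid cells, had negative values that did not pass, −0.74 for *Cebpa* (edgeR adjusted p = 0.144) and −0.79 for *Cebpb* (adjusted p = 0.0262). *Cebpb* shares 20.7% of its exon bases with *Tmem189* on the opposite strand. In total 3 of the 5 transcription factor genes passed as lower, and the GFP+ pools reached into the GFP- range by at most 4 pools for those 3. This count and those of the role groups below stand beside 9.63% of all genes tested that were lower. The share of all genes with a given number of GFP+ pools below every GFP- pool was computed for all 20 pools only.

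*Csf1r*, the receptor for the macrophage growth factors, lay nearer the threshold. It had 10.6, 442 and 1095 CPM in GFP+ HC and 524, 757 and 1038 CPM in GFP- HC. The groups overlapped: 11 GFP+ pools lay below every GFP- pool, 8 inside their range and 1 above it. The log2 fold change was −0.76 (SE 0.24, edgeR adjusted p = 0.00928), and under the alternative settings the adjusted p of *Csf1r* ranged from 0.00144 to 0.0215, and its call was lost in 6 alternatives, 1 of which raised the log2 threshold to 1. Of its exon bases, 15.1% overlap *Hmgxb3* on the opposite strand, and the strand setting of the counting is not given in the sources used here. Of the 2 ligands of this receptor, *Csf1* was near the floor in HC, with medians of 1.24 CPM in GFP+ and 0.892 CPM in GFP- pools, and *Il34* was at 0 counts in all 20 GFP+ and in 18 of the 20 GFP- pools.

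Both oxidase genes fell. *Cybb* encodes the membrane subunit of the phagocyte NADPH oxidase. It had 2.66, 48.6 and 103 CPM in GFP+ HC and 126, 184 and 282 CPM in GFP- HC. Every GFP+ pool lay below every GFP- pool, which was so for 1 of the 33 members tested and for 0.0432% of all genes tested (0.037% in the other direction). The log2 fold change was −1.92 (SE 0.23, edgeR adjusted p = 2.237e-08). *Ncf1*, the gene of a cytoplasmic subunit of the same oxidase, had 37.5, 93.1 and 182 CPM in GFP+ and 128, 199.75 and 288 CPM in GFP- HC, with 18 GFP+ pools below all GFP- pools and a log2 fold change of −1.06 (SE 0.14). *Ncf1* shares 11.1% of its exon bases with *Gtf2ird2* on the opposite strand.

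The lysozyme genes, which encode enzymes that cut bacterial cell walls, were both lower. *Lyz2*, the form typical of macrophages, had 168, 515 and 1259.9 CPM in GFP+ HC and 701, 1374 and 4576 CPM in GFP- HC, and it fell by 1.54 on the log2 scale (SE 0.24, edgeR adjusted p = 1.975e-06). *Lyz1*, the form known from Paneth cells of the gut, had 2.95, 6.49 and 16.01 CPM and 12.9, 20.8 and 69.97 CPM in the same groups, and it fell by 1.82 (SE 0.23). The genes are neighbours on chromosome 10, *Lyz2* at chr10:117277331-117282321 and *Lyz1* at chr10:117287797-117292868 on the minus strand of GRCm38. Their coding sequences of 447 bases differ at 22 positions (95.1% identity), with 118 bases as the longest identical stretch, so a full-length read inside the coding part spans at least 2 differences. The 2 whole transcripts share no identical stretch as long as a read. In every HC pool the reads of *Lyz1* were a small percentage of those of *Lyz2*, with medians of 1.29% in GFP+ and 1.68% in GFP- pools and a highest value of 3.24%. Whether the low *Lyz1* counts are *Lyz2* reads given to the wrong gene was not tested, and with both rows summed the log2 fold change was −1.55. The stretch of read length with the most differences (coding bases 32 to 156, both 5′ to 3′, differing bases in capitals) show how the 2 genes are told apart.
Lyz1: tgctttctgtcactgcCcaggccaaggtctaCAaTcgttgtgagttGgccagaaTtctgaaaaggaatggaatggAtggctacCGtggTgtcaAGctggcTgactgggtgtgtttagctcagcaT
Lyz2: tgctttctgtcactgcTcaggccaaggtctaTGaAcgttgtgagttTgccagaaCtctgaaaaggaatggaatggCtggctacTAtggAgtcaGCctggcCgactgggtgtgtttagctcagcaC

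**Figure D2:**
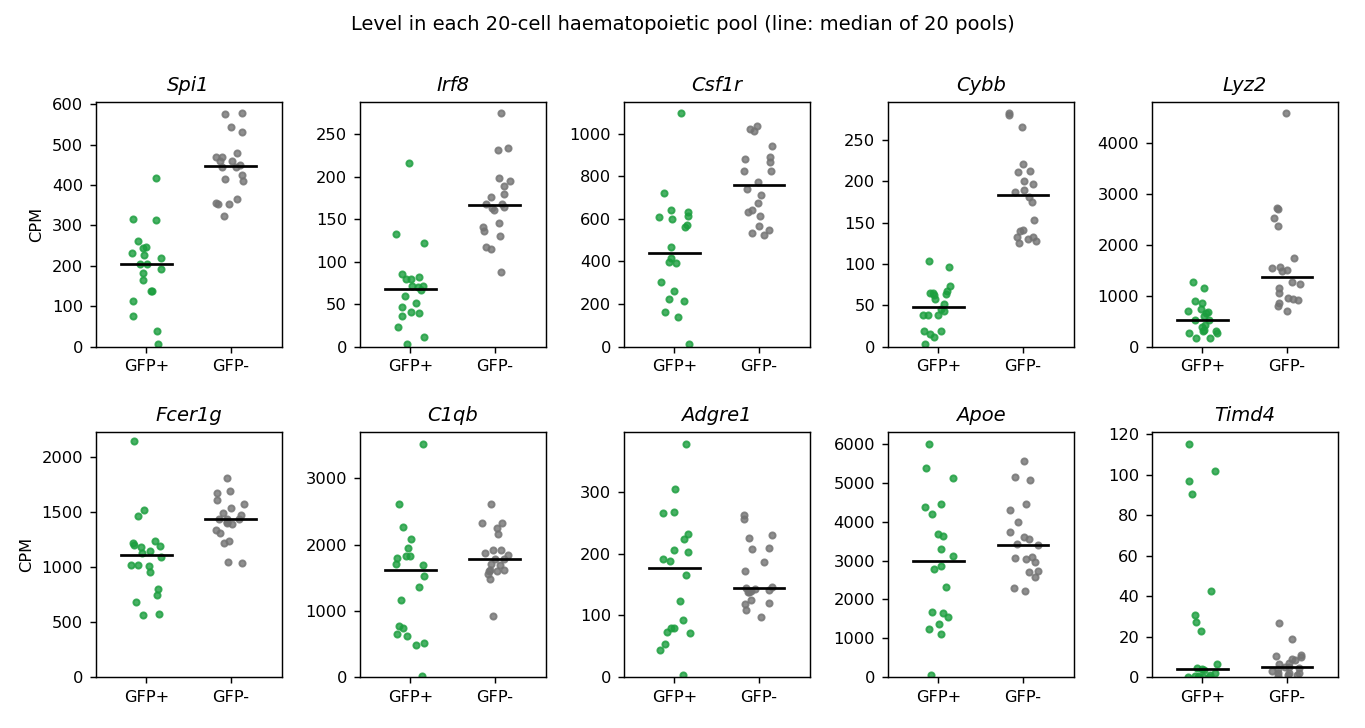
CPM (y axis, linear, from 0) of 10 macrophage genes in each of the 20 GFP+ and 20 GFP- HC pools, with a line at the median. The 20 GFP+ pools lie below all GFP- pools for *Cybb*, the 2 groups overlap for *C1qb*, *Adgre1* and *Apoe*, and *Timd4* splits the GFP+ pools into 8 above 20 CPM and 12 at or below 6.48 CPM.

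Among the genes of Fc receptors, of signalling adaptors and of the receptor TREM2, 2 of 5 passed. *Tyrobp* encodes DAP12, an adaptor with an immunoreceptor activation motif used by TREM2 and other receptors. It had 18.3, 879 and 1976 CPM in GFP+ HC and 1224, 1661 and 2454 CPM in GFP- HC, and fell by 0.94 on the log2 scale (SE 0.23, edgeR adjusted p = 0.00145). *Fcer1g* encodes the common gamma chain of Fc receptors, which platelets also use with their collagen receptor. It had 566, 1109.7 and 2145 CPM in GFP+ and 1032, 1435 and 1813 CPM in GFP- HC, and its fall of 0.39 (SE 0.11, edgeR adjusted p = 0.0034) was the smallest among the 13 members that passed. For every 100 *Fcer1g* reads, GFP+ pools had a median of 90.2 *Tyrobp* reads and GFP- pools had 119. *Fcgr1* and *Fcgr3*, the Fc receptors that bind antibody on macrophages, had values of −0.69 and −0.62 (edgeR adjusted p = 0.0133 and 0.0266), and *Trem2*, a lipid receptor, had −0.28.

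The 3 genes of complement C1q, a protein made of 3 kinds of chain that macrophages secrete, did not pass. *C1qb* had 17.3, 1609 and 3520.0 CPM in GFP+ HC and 915, 1786 and 2618 CPM in GFP- HC, with a log2 fold change of −0.34 (SE 0.26, edgeR adjusted p = 0.321). *C1qa* had medians of 464 and 449 CPM and a log2 fold change of 0.03, and *C1qc* had medians of 909 and 972 CPM and a log2 fold change of −0.26. The spread was wide in GFP+ pools: 7 of the 20 lay below every GFP- pool for each of the 3 genes, and 4 lay above every GFP- pool for *C1qa*. *C1qa* reads were 32.3% of *C1qb* reads in the median GFP+ pool and 25.8% in the median GFP- pool, with the 40 pools between 15.3% and 44.7%. *C1qc* reads were 59.3% of *C1qb* reads in the median GFP+ pool and 55.0% in the median GFP- pool, with all 40 pools between 39.7% and 70.4%. *Cybb* reads were 3.13% of *C1qb* reads in the median GFP+ pool and 10.045% in the median GFP- pool, and for *Spi1* these shares were 12.4% and 24.3%.

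None of the 9 tested surface and scavenger receptor genes passed by edgeR, whereas the scanpy t-test called *Mrc1* and *P2ry12* lower. *Adgre1* encodes F4/80, the classical surface marker of mouse macrophages. It had 2.99, 176 and 378 CPM in GFP+ HC and 97.4, 144 and 262 CPM in GFP- HC, with 8 GFP+ pools below, 8 inside and 4 above the GFP- range, and its log2 fold change was −0.04 (SE 0.26), a value whose sign turned under 4 alternatives. *Mrc1*, the gene of the mannose receptor CD206, had medians of 392 and 835 CPM and a log2 fold change of −0.89 (edgeR adjusted p = 0.0129). *P2ry12*, a nucleotide receptor known from microglia, had −0.71 (adjusted p = 0.011). *Cd68*, a lysosomal membrane protein of macrophages, had −0.35, the scavenger receptor gene *Msr1* −0.57, the costimulatory receptor gene *Cd86* −0.40, the apoptotic cell receptor gene *Mertk* −0.16 and the lipopolysaccharide co-receptor gene *Cd14* 0.07. *Cd163*, the haemoglobin scavenger receptor of some adult macrophages, was not tested, since it reached 10 counts in 2 GFP+ and 1 GFP- pools and had a median of 0 in both groups.

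*Timd4* was the member with the highest positive value, 1.97 on the log2 scale (SE 0.67, edgeR adjusted p = 0.0184), and it did not pass. It encodes a receptor for phosphatidylserine on dying cells, found on fetal and resident macrophages. It had 0, 4.21 and 115 CPM in GFP+ HC and 0.720, 4.9975 and 26.7 CPM in GFP- HC. The medians were alike, 6 GFP+ pools lay below and 7 above every GFP- pool, and 8 GFP+ pools were over 20 CPM, as was 1 GFP- pool. DESeq2 called *Timd4* higher (2.02), whereas the value was 0.0201 by the scanpy t-test, with an adjusted p of 0.987. The scanpy value comes from means of log counts and the DESeq2 value from mean counts, so the 2 are not the same measure.

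In the lysosomal and secreted groups, 3 of 6 genes passed. *Laptm5*, a lysosomal membrane protein of leukocytes, had 300.04, 561 and 852 CPM in GFP+ HC and 761.7, 932 and 1185 CPM in GFP- HC, and fell by 0.77 (SE 0.09, edgeR adjusted p = 5.094e-09) with 18 GFP+ pools below all GFP- pools. *Ctss*, the gene of the protease cathepsin S, had medians of 387 and 737 CPM and fell by 0.83 (SE 0.20). *F13a1*, which encodes the clotting factor XIII A subunit in macrophages, monocytes and megakaryocytes, had medians of 136 and 340.5 CPM and fell by 1.07 (SE 0.18). The lysosomal protease gene *Lgmn* had medians of 794 and 669.7 CPM and a log2 fold change of 0.11, and the lipid carrier gene *Apoe* had medians of 2989.5 and 3407 CPM and a log2 fold change of −0.25. *Aif1*, the gene of the calcium-binding protein IBA1, had −0.76 and just missed the threshold (edgeR adjusted p = 0.0112).

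Levels of different genes were set side by side per kilobase of exon. In GFP- HC the highest medians were those of *Tyrobp* at 2491, *Fcer1g* at 1642, *C1qb* at 1642 and *Apoe* at 1593 CPM per kilobase. In GFP+ HC the same 4 genes led, with *C1qb* at 1479, *Apoe* at 1398, *Tyrobp* at 1318 and *Fcer1g* at 1269.7 CPM per kilobase. The medians of *Fcer1g*, *C1qb* and *Apoe* in GFP- HC, and of all 4 genes in GFP+ HC, lie closer together than the pools of each gene are spread. At the low end stood *Timd4* and *Cd163*, with 2.30 and 0 CPM per kilobase in GFP- HC.

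The wider myeloid genes gave a like count. Of 43 further macrophage and myeloid genes, 40 were tested in HC, 13 fell and 2 rose, where 9.63% of all genes tested fell and 17% rose. The median change of the 40 was −0.47 on the log2 scale. The largest falls under the rule for named genes were those of *Csf2rb*, the common beta chain of the GM-CSF receptor (−1.72), *Clec7a*, the fungal glucan receptor dectin-1 (−1.59), and the inhibitory Fc receptor gene *Fcgr2b* (−1.52). *Csf2rb* had 0.665, 23.8 and 54.8 CPM in GFP+ HC and 44.5, 68.8 and 129.7 CPM in GFP- HC. The rises were those of *Axl*, a receptor for dying cells (1.29, SE 0.40, edgeR adjusted p = 0.00919), and of *Ctsd*, a lysosomal protease gene (0.56, SE 0.15).

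Several marker lists of other cells moved with the GFP fractions too. The counts below stand beside 9.63% of all genes tested in HC that were lower and 17% that were higher. The pan-leukocyte list fell: 8 of its 10 genes passed as lower and 0 as higher, and its summed level ran from 1774 to 4916 CPM in GFP+ HC and from 4448 to 6577 CPM in GFP- HC. Megakaryocyte markers rose, 8 of 8, with sums of 1695 to 60099 CPM in GFP+ and 138 to 3974 CPM in GFP- HC, and no marker of the list was at 0 in every pool. Granulocyte markers fell, 8 of the 8 tested, with sums of 7.79 to 383 CPM in GFP+ and 66.3 to 30177 CPM in GFP- HC. Sympathetic and neural crest markers (10 of 10 higher, sums of 5.71 to 1954 CPM against 1.71 to 27.8 CPM), mesenchymal markers (8 of 8 higher, 17.9 to 959.9 CPM against 3.19 to 170.15 CPM), endothelial markers (6 of 7 tested higher, 87.4 to 583 CPM against 32.2 to 154 CPM) and nephric duct and epithelial markers (6 of 6 tested higher, 2.63 to 346 CPM against 0.596 to 26.0 CPM) were also higher in GFP+ HC. Of 6 dissociation response genes, 4 passed as lower. Other lists were mixed or thinly tested: 1 of 9 erythroid genes was higher and 1 lower, 2 of 7 stem and progenitor genes were higher and 2 lower, 1 of 2 tested mast cell genes was lower and 1 of 2 tested lymphoid genes higher. The part that these cells and signs have in the lower macrophage genes was not tested. RNA per spike-in did not differ detectably: on the log2 scale, gene counts over ERCC counts were 6.77 ± 0.43 in GFP+ and 6.80 ± 0.32 in GFP- HC (mean ± SD, n = 20 pools each, p = 0.781 by a two-sided permutation test).

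Set against the pan-leukocyte counts of the same pool, the members divided. The ratio of a member's reads to the summed reads of the pan-leukocyte genes had a lower median in GFP+ HC for 14 members and a higher one for 19, of the 33 with a median above 0. *Cybb* had 32.8 reads per 1000 pan-leukocyte reads in the median GFP- pool and 14.2 in the median GFP+ pool, a log2 ratio of −1.20, the lowest of the 33. *Spi1* had 79.4 and 68.9 reads per 1000, whereas *C1qb* had 328 and 481 and *Adgre1* had 26.8 and 53.6, a log2 ratio of 1.0004, the highest. These ratios are a description, since the pan-leukocyte genes themselves fell and macrophages express them.

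For most macrophage genes, the GFP+ HC pools differed from each other more than the GFP- pools did. The coefficient of variation over pools was larger in GFP+ than in GFP- HC for 31 of the 34 members, for example 49.3% against 16.6% for *Spi1* and 58.4% against 20.5% for *C1qb*. The share of all genes with a larger coefficient in GFP+ HC was not computed, so this count cannot be read as particular to the macrophage genes. Granulocyte sums spread the other way, from 66.3 to 30177 CPM in GFP- and from 7.79 to 383 CPM in GFP+ HC. The 34 genes summed to between 2359 and 28076 CPM with a median of 13431 in GFP+ HC, and to between 13759 and 26197 CPM with a median of 18694 in GFP- HC. In each GFP+ pool, between 3 and 31 of the 33 tested members lay below the lowest GFP- pool, with a median of 14. Over the 11518 tested genes with counts in every GFP- HC pool, the share below the lowest GFP- pool was 7.91% to 21.8% per pool, with a median of 12.2%.

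**Figure D3:**
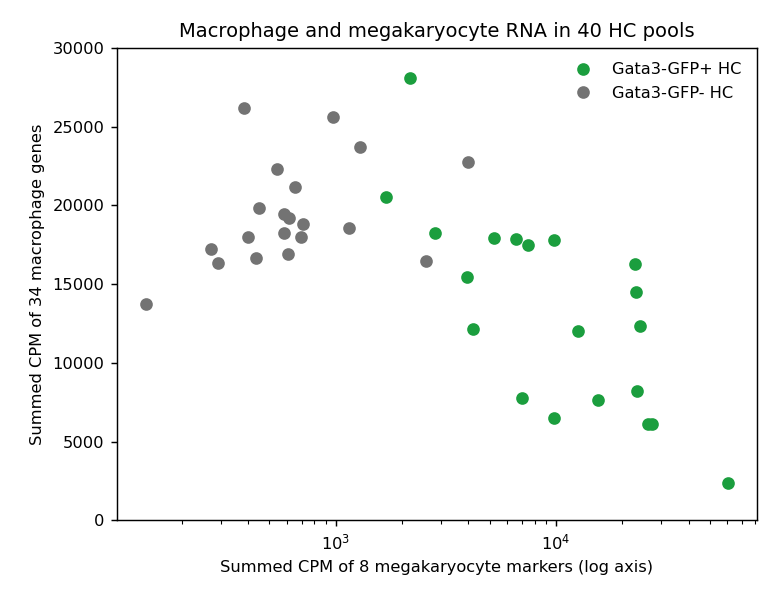
Summed CPM of the 34 macrophage genes (y axis, linear, from 0) against the summed CPM of 8 megakaryocyte markers (x axis, log scale) in each of the 40 HC pools. The GFP+ pool highest in macrophage genes had 28076 CPM at 2181.6 CPM of megakaryocyte markers, and the lowest had 2359 CPM at 60099 CPM. Not all GFP+ pools follow this order, with 16265 CPM at 22825 CPM in 1 pool and 7756 CPM at 7045 CPM in another. The GFP- pools stay between 13759 and 26197 CPM.

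One GFP+ HC pool had almost no macrophage RNA. It was the pool with the highest megakaryocyte sum, 60099 CPM, and 24 of the 33 members with a median above 0 in the other 19 GFP+ pools were there under 10% of that median. *Csf1r* was at 10.6 CPM (32 counts), *C1qb* at 17.3 CPM, *Adgre1* at 2.99 CPM and *Cd14* at 0 counts. The 7 members at 30% or more were *Lyz1*, *Lyz2*, *Fcer1g*, *Mertk*, *Laptm5*, *F13a1* and *Ncf1*. *Fcer1g* had 1203 CPM there, 110.1% of the median of the other pools, and *F13a1* had 293 CPM, 216% of it. Without this pool all 13 members stayed lower and *Mrc1*, *Fcgr1*, *Fcgr3* and *Aif1* passed as lower as well. Without the 2 GFP+ pools with the highest sympathetic and neural crest sums, 12 of the 13 stayed and *Csf1r* did not.

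**Figure D4:**
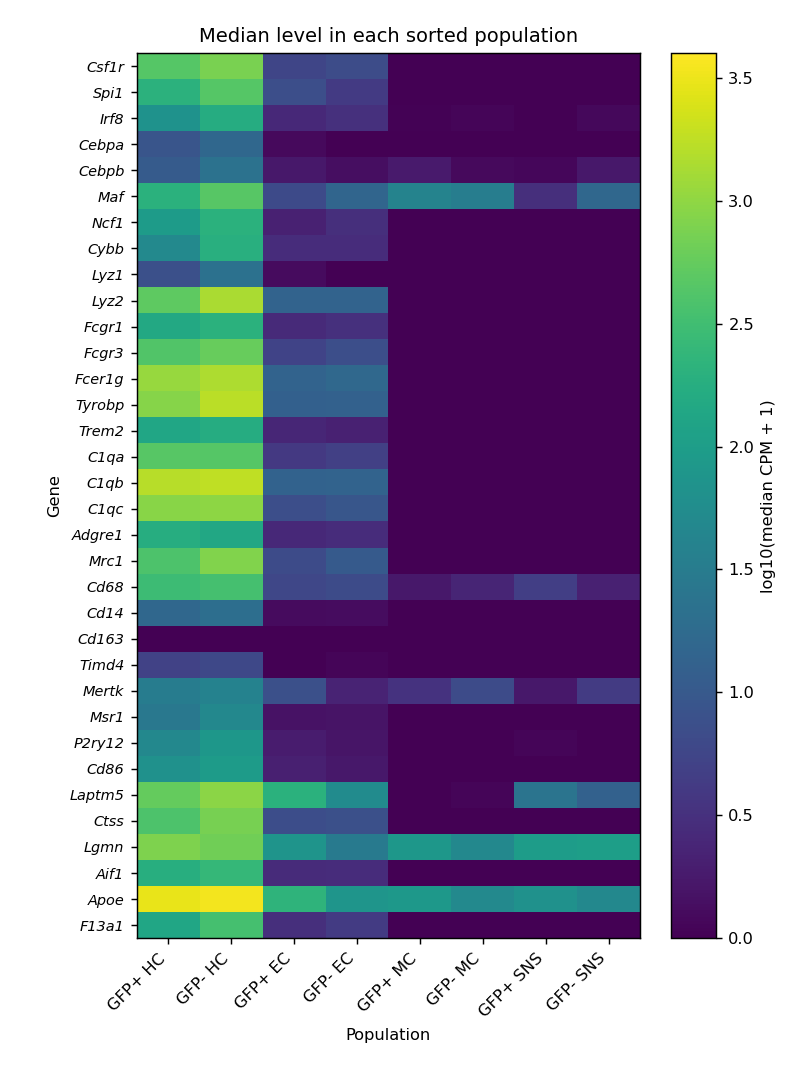
Median level of each of the 34 genes (rows) in the 8 sorted populations (columns), as log10 of the median CPM plus 1 on the colour scale. The 2 HC columns are the brightest for 33 genes, EC are dim, and in MC and SNS columns 26 or 27 of the 34 genes have a median of 0 while *Lgmn*, *Apoe* and *Maf* do not.

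The members were higher in HC than in EC, a direction that the sort and the filter on counts largely set. EC were sorted without CD41 and CD45. Of the 33 members tested, 25 had enough counts to be tested in EC alone. All 33 that could be tested were higher in HC than in EC in the GFP- fraction, where 18.2% of all genes were higher and 20.1% lower, and all 33 were so in the GFP+ fraction, where 24.7% were higher and 18.6% lower. The median log2 fold change was 6.46 in GFP- and 5.83 in GFP+ cells, beside −0.01 and 0.09 over all genes. The number lower in HC was 0 in both by edgeR, and 0 at an unadjusted p under 0.05; these contrasts were run with no other tool. The mean level in EC was 1.34% of that in HC for the median member, and for 25 of the 34 it was under 2%. In the other direction, *Cdh5*, which encodes VE-cadherin, had 1.08% of its EC level in HC. The 9 members at 2% or more were *Spi1*, *Cebpb*, *Maf*, *Cd14*, *Cd163*, *Mertk*, *Laptm5*, *Lgmn* and *Apoe*. The share of *Cd163* rests on values near the floor, with a median of 0 in HC and EC and at most 3 counts in an EC pool. The part that HC among the EC pools have in these low levels was not tested.

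In EC, 6 of the 25 members tested passed, 5 higher and 1 lower in GFP+ pools, where 19.4% of all genes were higher and 16.5% lower. *Apoe* had 121, 222 and 504 CPM (lowest, median and highest of 19 pools) in GFP+ EC and 31.5, 73.4 and 155 CPM in 20 GFP- pools, and rose by 1.62 on the log2 scale (SE 0.18). *Laptm5* had 141, 201 and 325 CPM in GFP+ EC and 29.4, 53.7 and 94.4 CPM in GFP- EC, and rose by 1.89 (SE 0.12). Its mean level in EC was 17.4% of that in HC, the highest share of the 34. *Spi1* rose by 2.32 (SE 0.43), with means of 18.1 ± 23.3 CPM in GFP+ and 3.52 ± 1.95 CPM in GFP- EC (SD, n = 19 and 20 pools). Its medians of 6.396 and 3.10 CPM lay closer together than the means, and the highest GFP+ pool reached 79.5 CPM. *Mertk* rose by 2.004 (SE 0.51) and *Lgmn* by 1.08 (SE 0.18), with medians of 72.2 CPM in GFP+ and 29.6 CPM in GFP- EC. *Maf* fell by 1.10 (SE 0.28). *C1qb* had medians of 12.6 and 12.9 CPM in GFP+ and GFP- EC, and *Csf1r* had 4.62 and 5.77 CPM. The ligand gene *Csf1* rose by 2.57 in GFP+ EC (SE 0.48, edgeR adjusted p = 2.036e-05), from a median of 2.02 to 12.03 CPM with 64.8 CPM in the highest pool, and *Il34* had a median of 0. With scaling to the ERCC RNAs the median of all genes in EC moved from 0.10 to −0.60, and 14.3% of the genes called were higher in place of 54.0%. Under that scaling *Spi1*, *Laptm5* and *Apoe* remained higher and *Maf* lower, the calls for *Mertk* and *Lgmn* were lost (that for *Mertk* also by the scanpy t-test), and *Csf1r*, *Irf8*, *Mrc1* and *Ncf1* were called lower.

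The effect of the GFP fraction differed between HC and EC for 9 of the 33 members in a test of the difference itself, all of them more negative in HC, where 8.61% of all genes were so and 14.1% were more positive. The 9 were *Spi1*, *Cebpb*, *Lyz1*, *Lyz2*, *Mertk*, *Laptm5*, *Lgmn*, *Apoe* and *Cybb*. *Cebpb* and *Lyz1* had too few counts to be tested in EC alone, so their differences rest on EC values near the floor. In GFP+ and GFP- EC the medians were 0.73 and 0.34 CPM for *Cebpb*, and 0.27 and 0 CPM for *Lyz1*. More positive members numbered 0 by edgeR, and 1 had an unadjusted p under 0.05; no other tool was run on this contrast. *Spi1* and *Laptm5* passed in opposite directions, lower in GFP+ HC and higher in GFP+ EC. For *Maf*, lower in GFP+ pools of both cell types, the difference of effects was −0.02 (SE 0.43). With scaling to the ERCC RNAs the median difference over all genes moved from 0.11 to 0.75, the share of calls that were more positive in HC from 62.1% to 91.0%, and *Spi1*, *Laptm5* and *Apoe* were the 3 members that remained.

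**Figure D5:**
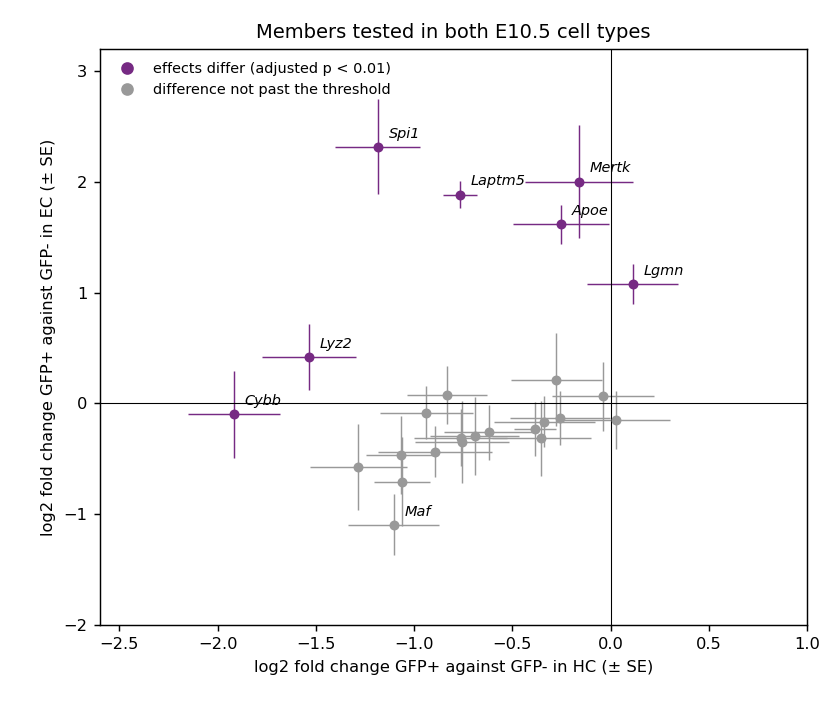
Log2 fold change between GFP+ and GFP- pools in HC (x axis) and in EC (y axis) for the 25 members tested in both, with standard errors. Purple points are members whose effects differed between the cell types, among them *Spi1* at −1.19 in HC and 2.32 in EC, and grey points are the others. *Cebpb* and *Lyz1*, not tested in EC alone, are not shown.

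In MC and SNS most macrophage genes had almost no counts. In the 37 passing pools of each cell type, 27 of the 34 members had a median of 0. *Lgmn*, *Apoe*, *Maf*, *Cd68*, *Mertk* and *Cebpb* had medians above 0 in both, with *Lgmn* at 78.9 and 46.6 CPM in GFP+ and GFP- MC and at 97.98 and 104 CPM in GFP+ and GFP- SNS. Of the 8 members tested in MC, 1 was lower and 0 higher, where 2.15% of all genes were lower and 2.22% higher. It was *Lyz1* (−3.87), at 0 in 19 of 20 GFP+ and in 11 of 17 GFP- MC pools and with at most 27 counts, in 5 GFP- pools 10 or more. The number higher was 3 at an unadjusted p under 0.05, and DESeq2 and scanpy called no member in either direction. In SNS 8 members were tested and 0 passed by edgeR, where 2.0% of all genes were higher and 1.85% lower. One had an unadjusted p under 0.05 in each direction, and DESeq2 and scanpy each called *Maf* lower, with medians of 2.09 CPM in GFP+ and 14.8 CPM in GFP- SNS.

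Promoter sequence was used for 25 members in RefSeq's windows (GRCm38.p6), read over the 250 bases before each gene start on both strands, beside the 27025 promoters in the same set. A PU.1 site, GAGGAAGT, was in 1 of the 25 (4%, *C1qc*) and in 2.44% of all promoters. A C/EBP site, TTGCNNAA, was in 4 (16%, *Cd68*, *Fcgr3*, *Lyz1* and *P2ry12*) and in 9.55% of all. The ETS-IRF composite element was in 1 (4%, *Timd4*) and in 2.38%, and the MAF site TGCTGAC in 2 (8%, *Fcgr3* and *Timd4*) and in 3.72%. A GATA site, NGATAA, was in 5 (20%, *Cd163*, *Cybb*, *F13a1*, *Fcgr1* and *Lyz1*), no larger a share than the 23.0% of all promoters. These are matches of letters in a short window, and the PU.1 and ETS-IRF motifs can share letters. No window was used for *Csf1r*, *Spi1*, *Maf*, *Adgre1*, *Cd14*, *C1qa*, *Tyrobp*, *Msr1* and *Cd86*. No match of 1 motif overlapped a match of another in the sequences printed. Shown are *Cybb*, *F13a1* and *Lyz1*, which fell in GFP+ HC and hold a GATA match, *Lyz2*, the neighbour of *Lyz1*, which holds none, and *C1qb*, which did not pass and holds none of the 5 motifs. Matches are in capitals, each sequence runs 5′ to 3′ on the gene's strand (minus for all 5), and annotated exons are left out, which shortens the *Lyz2* window to the bases from 250 to 50 before its start. The windows are chrX:9469325-9469574 for *Cybb*, chr13:37050245-37050494 for *F13a1*, chr10:117292869-117293118 for *Lyz1*, chr10:117282322-117282522 for *Lyz2* and chr4:136886201-136886450 for *C1qb*. The *Cybb* window lies inside the span that Ensembl gives this gene (chrX:9435252-9487771), since a longer transcript starts further upstream, and the other 4 lie outside the Ensembl span of their genes. *Lyz1* holds a C/EBP match first and a GATA match second.
Cybb: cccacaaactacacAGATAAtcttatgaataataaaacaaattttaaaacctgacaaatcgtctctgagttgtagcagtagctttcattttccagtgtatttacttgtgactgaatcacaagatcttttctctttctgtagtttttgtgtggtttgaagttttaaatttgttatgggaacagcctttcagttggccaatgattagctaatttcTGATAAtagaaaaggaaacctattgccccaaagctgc
F13a1: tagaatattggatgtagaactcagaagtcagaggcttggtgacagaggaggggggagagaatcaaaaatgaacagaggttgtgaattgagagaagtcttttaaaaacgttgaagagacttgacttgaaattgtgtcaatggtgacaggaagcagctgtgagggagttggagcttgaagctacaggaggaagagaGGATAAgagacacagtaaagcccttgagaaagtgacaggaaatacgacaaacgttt
Lyz1: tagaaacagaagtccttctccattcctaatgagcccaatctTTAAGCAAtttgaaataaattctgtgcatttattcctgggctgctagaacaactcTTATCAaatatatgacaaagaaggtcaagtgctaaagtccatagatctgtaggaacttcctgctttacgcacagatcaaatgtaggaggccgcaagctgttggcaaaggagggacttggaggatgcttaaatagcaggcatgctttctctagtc
Lyz2: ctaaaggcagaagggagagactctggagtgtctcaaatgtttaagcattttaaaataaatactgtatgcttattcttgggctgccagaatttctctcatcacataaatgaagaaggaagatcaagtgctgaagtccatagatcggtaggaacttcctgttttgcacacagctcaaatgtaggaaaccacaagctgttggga
C1qb: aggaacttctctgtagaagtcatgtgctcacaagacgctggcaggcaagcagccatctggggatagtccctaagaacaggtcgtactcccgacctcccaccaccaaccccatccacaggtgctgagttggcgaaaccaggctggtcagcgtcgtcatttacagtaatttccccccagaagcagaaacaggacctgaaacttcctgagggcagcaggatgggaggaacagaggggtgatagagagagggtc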

How the data were processed

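RNA of 20-cell pools was amplified by Smart-seq2 and sequenced as single-end reads. The deposited values are counts of reads per gene, not normalized, which the authors made by alignment and counting. The study's methods name STAR, whereas the submitters' processing notes name GSNAP, HTSeq 0.5.3p3 and mm10, and the strand setting is not given in the sources used here. Pools needed 500000 reads, 20% of reads on genes, at most 20% mitochondrial and at most 20% ERCC reads, and 153 of 160 passed, with 1400824 to 16004756 counts on genes. The 5 summary rows and 92 ERCC rows were kept out of library sizes, 0 columns were left unmapped, and 0 pools were identical. Within a population the columns share 1 name, so a pool has a group but no number of its own.

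A gene was tested when 5 or more pools of a comparison had 10 or more counts. The test was the robust quasi-likelihood test of edgeR 4.0.16 in R 4.3.3 after TMM normalization. Calls needed an adjusted p (Benjamini-Hochberg) under 0.01 with a log2 change past 0.1 in size. HC and EC were compared in 1 fit with an interaction term. Alternatives were other size factors (DESeq2 1.42.0, scran 1.30.0, ERCC), other filters, thresholds and pools, DESeq2's Wald test and the t-test of scanpy 1.11.5. Fold changes by scanpy come from means of log counts, so their size and sign are not the same measure as those of edgeR and DESeq2. The fits were tested on simulated data. The ratio of gene to ERCC counts was compared over 100000 permutations. The text names all 34 members, the *Csf1r* ligands, the sort genes and up to 3 rising and 3 falling genes of the wider myeloid list. Members and lists were chosen with earlier results of these data known.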

Additional observations from a re-analysis of the deposited data

Results flagged for a closer look

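For 9 members the effect of the GFP fraction in HC differed from that in EC by a test of the difference itself (edgeR's quasi-likelihood test of an interaction term). The difference of the log2 fold changes, HC minus EC, was −3.51 for *Spi1*, −2.65 for *Laptm5*, −2.18 for *Mertk*, −2.06 for *Cebpb* and −1.96 for *Lyz2*. It was −1.89 for *Lyz1*, −1.87 for *Apoe*, −1.81 for *Cybb* and −0.96 for *Lgmn*. *Cebpb*, *Lyz1* and *Lgmn* lay nearest the threshold, and each lost its call under at least 2 alternatives. *Cebpb* and *Lyz1* had too few counts in EC to be tested there alone.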

How the results depend on the processing

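No paired analysis was possible because the 20 columns of a population share 1 name and carry no pool number, so the replicate block was not run. No HC pool failed the limits, so the use of all pools gives no HC value and none for the ERCC ratio. In HC, 11 to 13 of the 13 lower members kept their call under every alternative except a log2 threshold of 1, which kept 8. Members gained as lower were *Aif1* by DESeq2's test, *P2ry12* with no filter, and *Cebpb*, *Mrc1*, *Aif1* and *P2ry12* by scanpy. An adjusted p under 0.05 added *Cebpb*, *Mrc1*, *Fcgr1*, *Fcgr3*, *Aif1* and *P2ry12* as lower. Gains without single pools are given above. *Csf1r* was lost with DESeq2 size factors, with ERCC scaling, with no filter and with the strict filter of 20 pools. It was also lost, as separate alternatives, without the 2 sympathetic-high pools and at the log2 threshold of 1. *Fcer1g* was lost with DESeq2 size factors, with ERCC scaling and at that threshold. Genes lower in HC numbered 948 with ERCC scaling, 2387 at an adjusted p under 0.05 and 362 at a log2 threshold of 1, and genes higher 1793 with the strict filter. Members higher in HC numbered 1 by DESeq2's test and 1 at an adjusted p under 0.05. Among the members followed singly, signs turned for *Adgre1* in HC (0.0079 with DESeq2 size factors, 0.0083 by DESeq2's test, 0.0336 without the lowest pool, 0.0377 without the sympathetic-high pools), *Cd14* (−0.0524 with ERCC scaling, −0.76 by scanpy), *C1qa* (−0.45 by scanpy, −0.0187 without the GFP- pool lowest in ambiguous reads), *Lgmn* (−0.21 by scanpy) and, in EC, *Csf1r* (0.10 with all pools). Among members with no call under any setting, signs turned for 14 of 114 values in EC, 16 of 126 in the difference between HC and EC, 2 of 45 in MC and 2 of 44 in SNS. In EC, ERCC scaling gave 3 members higher and 5 lower, and all pools gave 0 lower. In MC, 0 members were lower with ERCC scaling, the strict filter, DESeq2's test and scanpy, and 1 was higher at an adjusted p under 0.05. In SNS, ERCC scaling gave 1 higher and 1 lower, and DESeq2's test, scanpy and an adjusted p under 0.05 gave 1 lower each. ERCC scaling left 3 members whose effect differed between HC and EC. It moved the share of calls that were higher from 50.8% to 72.4% in MC and from 52.0% to 83.3% in SNS, where the median of all genes went to 0.35. The cause of these changes was not tested. The pools left out singly were chosen after seeing the data.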
